A study of Oryctolagus cuniculus with 8 samples.

Results

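The miRNAs miR-451, miR-144, miR-486 and miR-122, which are best known from red blood cells and from the liver, were followed in extracellular vesicles of the rabbit reproductive tract. Every name in the count table that gives 1 of these 4 miRNAs, on either arm of its hairpin, was taken, which gave 7 of 579 mature names. In all libraries together ocu-miR-451-5p had 2741 reads, ocu-miR-144-5p 32, ocu-miR-144-3p 15, ocu-miR-486-5p 3797 and ocu-miR-122-5p 1359. The opposite arms ocu-miR-486-3p and ocu-miR-122-3p had 0 reads in every library. The names below omit the species prefix ocu.

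Extracellular vesicles are membrane-bound particles that carry RNA out of cells, and those of a flushed organ can come from its lining, its wall and any blood that enters the flush. In mammals miR-451 is made in large amounts by maturing red cells, where its short hairpin is cut by Argonaute 2 and not by Dicer, so that a single product is left. In human and mouse miR-144 is cut from the same primary transcript as miR-451, under the erythroid factor GATA1, but matures through Dicer. miR-486 lies within ANK1, the gene of a red-cell membrane ankyrin, and is also abundant in muscle. miR-122 is the dominant miRNA of hepatocytes, where it acts on lipid metabolism, and it circulates in plasma.

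The groups were uterine-fluid vesicles (3 libraries, titled 12, 3 and 4) and oviductal-fluid vesicles (5 libraries, titled 1 to 5), all from wild-type California x New Zealand white does that had borne several litters. Ovulation had been induced in all does with a GnRH analogue (20 µg), given 48 h after the gonadotropin eCG (25 IU), and the tracts were taken at least 14 to 15 h later. Uterine pools held 5 animals each and oviductal pools held 3. These make 30 animal places for 21 does, so some does were in more than 1 pool, and p-values measure the spread between pools. The tests treated the pools as independent, which pools that share does are not. Each uterus was flushed with 2.2 mL and each oviduct with 1 mL of buffer, and flushes were spun at 300 g and at 10000 g and filtered at 0.22 µm before the vesicles were isolated by size exclusion chromatography. Depth ran from 232546 to 479865 miRNA reads in uterine and from 42684 to 569087 in oviductal libraries. The shallowest were oviductal replicates 2 and 3, where 3 reads, the most that a count of 0 allows, stood for 63.0 and 70.3 CPM (reads per 1000000 miRNA reads). In such bulk material fewer vesicles from a cell type and less of an miRNA per vesicle cannot be told apart.

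The 7 members together made up 0.549% ± 0.325 of uterine reads (SD, n = 3) and 0.255% ± 0.0689 of oviductal reads (SD, n = 5). By library the sum was 0.668%, 0.181% and 0.798% in uterine replicates 12, 3 and 4. It was 0.135%, 0.279%, 0.305%, 0.261% and 0.294% in oviductal replicates 1 to 5. Uterine replicates 12 and 4 lay above all oviductal libraries and uterine replicate 3 lay among them.

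miR-451-5p, the red-cell product cut by Argonaute 2, was present in every library. It had 487, 274 and 1055 reads in uterine replicates 12, 3 and 4, which is 2094, 571 and 3621 CPM. In oviductal replicates 1 to 5 it had 190, 17, 31, 27 and 660 reads, which is 430.3, 357, 726, 106 and 1160 CPM. The groups overlapped, because uterine replicate 3 was below oviductal replicates 3 and 5. The values spanned 34.1-fold between uterine replicate 4 and oviductal replicate 4. In the shallow oviductal replicate 2 the exact 95% binomial interval, which covers counting error only, ran from 208 to 572 CPM and in oviductal replicate 3 from 494 to 1031 CPM. That of uterine replicate 3, 505 to 643 CPM, overlapped both. Among all miRNAs of its library miR-451-5p ranked 28th, 60th and 31st in uterine replicates 12, 3 and 4 and between 55th and 121st in the oviductal libraries.

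miR-144, the partner of miR-451 on the primary transcript, had few reads, and all of them came from uterine libraries. In the RefSeq annotation of a different rabbit assembly, mOryCun1.1, MIR144 is the next gene after MIR451, between ERAL1 and FLOT2. miR-144-5p had 17, 15 and 0 reads in uterine replicates 12, 3 and 4, against 0 in each oviductal library. miR-144-3p had 0, 0 and 15 reads in the same uterine libraries, against 0 in each oviductal library. Each uterine library thus showed 1 arm and not the other, and no oviductal library showed either. With the arms summed, the level was 73.1, 31.3 and 51.5 CPM in uterine replicates 12, 3 and 4, and 0 CPM in the 5 oviductal libraries.

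Pooled over each group, the 47 reads of miR-144 stood for 46.8 CPM in uterine vesicles. That was 21.2-fold the floor of 2.21 CPM that 3 reads over all oviductal libraries give. This bound covers the counting error of the pooled oviductal reads only, and not the spread between pools. At the uterine level 63.5 reads would have been counted in the oviductal group. Leaving out each library in turn gave bounds of 12.3-fold to 27.6-fold, and the lowest was that without oviductal replicate 5. A count of 0 allows up to 6.79, 11.8 and 5.27 CPM in oviductal replicates 1, 4 and 5, below the level of every uterine library. In oviductal replicates 2 and 3 it allows more than the mean uterine level, so at that depth a count of 0 does not exclude a like amount. Summed over arms, 235 miRNA names had a read somewhere, and miR-144 was the only 1 of them (0.426%) with reads in every uterine library and in no oviductal library. Of the 354 mature names with reads, 29 (8.19%) had reads in uterine libraries alone, 26 of them in a single library. Neither arm had enough reads in enough libraries to pass the filter of the count test. Without that filter the edgeR adjusted p was 0.124 for miR-144-5p and 0.225 for miR-144-3p, and neither was called.

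The share of miR-144 in the summed reads of miR-144 and miR-451-5p was 3.37% (exact 95% interval 1.98% to 5.35%) in uterine replicate 12. It was 5.19% (2.93% to 8.42%) in uterine replicate 3 and 1.40% (0.787% to 2.30%) in uterine replicate 4. Oviductal replicate 5, with 660 reads of miR-451-5p, had 0 of miR-144, which allows a share of up to 0.455%. Its limit was below the lower bound of each uterine library. In oviductal replicate 1 the limit was 1.58%, and in the other oviductal libraries, with 17 to 31 reads of miR-451-5p, it was 9.68% to 17.6%, too high to compare.

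**Figure D1:**
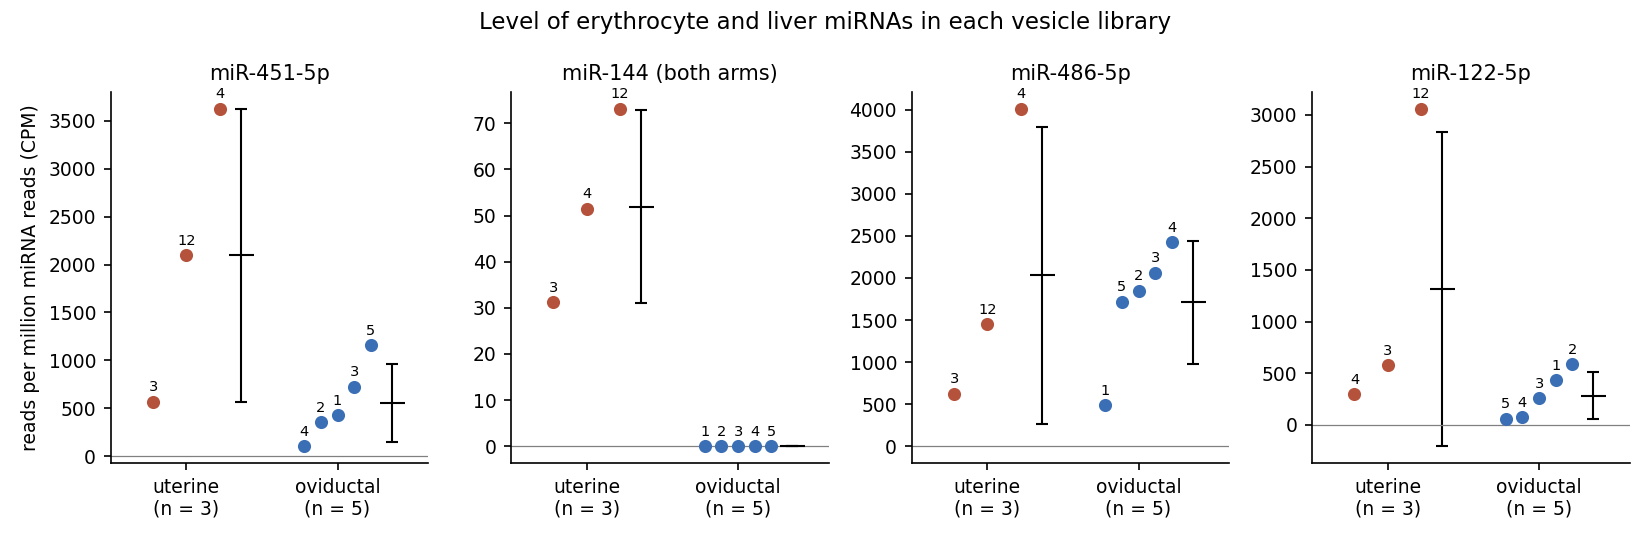
Reads per 1000000 miRNA reads (CPM, linear axes) of miR-451-5p, of the summed arms of miR-144, of miR-486-5p and of miR-122-5p. Each point is a library with its replicate number, uterine left and oviductal right, and the black bar gives mean ± SD; miR-144 was at 31.3 to 73.1 CPM in the 3 uterine and at 0 in the 5 oviductal libraries, while the other panels overlap.

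miR-486-5p, from the ANK1 gene, was the most abundant member in every library but uterine replicate 12, and was spread otherwise than miR-451-5p. MIR486 lies within the span of ANK1 in the mOryCun1.1 annotation too. It had 338, 301 and 1168 reads in uterine replicates 12, 3 and 4, which is 1453, 627 and 4009 CPM. In oviductal replicates 1 to 5 it had 217, 88, 88, 618 and 979 reads, which is 491, 1849, 2062, 2427 and 1720 CPM. The highest value was uterine and the next 4 were all oviductal, so the groups were interleaved. Oviductal replicate 4, which had the least miR-451-5p of all libraries, had the most miR-486-5p of its group. The mean level was 2030 ± 1763 CPM over uterine libraries (SD, n = 3) and 1710 ± 732 CPM over oviductal libraries (SD, n = 5). The opposite arm, miR-486-3p, had 0 reads, which allows up to 6.25 CPM in uterine replicate 3 and 5.27 CPM in oviductal replicate 5, the deepest libraries of their groups.

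miR-122-5p, the hepatocyte miRNA, was highest in uterine replicate 12, whereas miR-451-5p and miR-486-5p were highest in uterine replicate 4. It had 711, 278 and 87 reads in uterine replicates 12, 3 and 4, which is 3057, 579 and 299 CPM. In oviductal replicates 1 to 5 it had 190, 28, 11, 19 and 35 reads, which is 430.3, 588, 258, 74.6 and 61.5 CPM. Uterine replicate 12 stood above all other libraries, and uterine replicates 3 and 4 lay within the oviductal range. In uterine replicate 12 it ranked 22nd of all miRNAs, in uterine replicates 3 and 4 it ranked 59th and 99th, and in the oviductal libraries between 63rd and 147th. The interval of oviductal replicate 2, 391 to 850 CPM, contained the value of uterine replicate 3. From the highest to the lowest library the level spanned 49.7-fold, the widest of the 3 members with reads in every library. miR-122-3p had 0 reads throughout, under the same limits as miR-486-3p.

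The series asks which miRNAs differ between vesicles of the 2 fluids. None of the 3 members that could be tested was called by edgeR's quasi-likelihood test at a Benjamini-Hochberg adjusted p of 0.05, against 3 of 178 tested miRNAs (1.69%), all higher in uterine vesicles. Without uterine replicate 3, 27 miRNAs were called, 12 higher and 15 lower. For miR-451-5p the uterine mean was 2096 ± 1525 CPM (SD, n = 3) against an oviductal mean of 556 ± 404 CPM (SD, n = 5). Its log2 fold change was 2.16 ± 0.66 (SE; edgeR adjusted p 0.107). For miR-122-5p the uterine mean was 1312 ± 1518 CPM (SD, n = 3) against an oviductal mean of 282 ± 228 CPM (SD, n = 5), and the log2 fold change was 2.79 ± 0.87 (SE; edgeR adjusted p 0.107). For miR-486-5p it was 0.44 ± 0.56 (SE; edgeR adjusted p 0.802). Among the 178, the fold change of miR-122-5p ranked 8th from the top, that of miR-451-5p 15th and that of miR-486-5p 58th, where the median of all was -0.02. At an unadjusted p under 0.05, 2 of the 3 members were higher in uterine vesicles, against 18 of all 178 (10.1%). None of the 3 had groups that did not overlap after scaling, against 24 of the 178 (13.5%). The filter on low counts had kept 3 of the 7 members, so these counts say nothing of the others.

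Single libraries and the tool moved these values. For miR-122-5p the log2 fold change was 1.02 (edgeR adjusted p 0.821) without uterine replicate 12 and 3.34 (0.0375) without uterine replicate 4. For miR-451-5p it was 1.84 (0.406) without uterine replicate 12 and 2.30 (0.0232) without uterine replicate 3. Among all tested miRNAs, 1 of 209 was called without uterine replicate 12, 27 of 200 without uterine replicate 3 and 9 of 190 without uterine replicate 4. DESeq2 called both, with adjusted p of 0.0217 for miR-122-5p and 0.0378 for miR-451-5p, among 11 of 178 miRNAs (6.18%). With no filter edgeR called both, among 13 of 354 miRNAs. Over all alternatives the adjusted p ran from 0.00407 to 0.998 for miR-122-5p, from 0.00748 to 0.871 for miR-451-5p and from 0.538 to 0.998 for miR-486-5p. The highest of each came from the fit with a block by the number in the titles. That fit has little power, as only the numbers 3 and 4 occur in both groups.

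**Figure D2:**
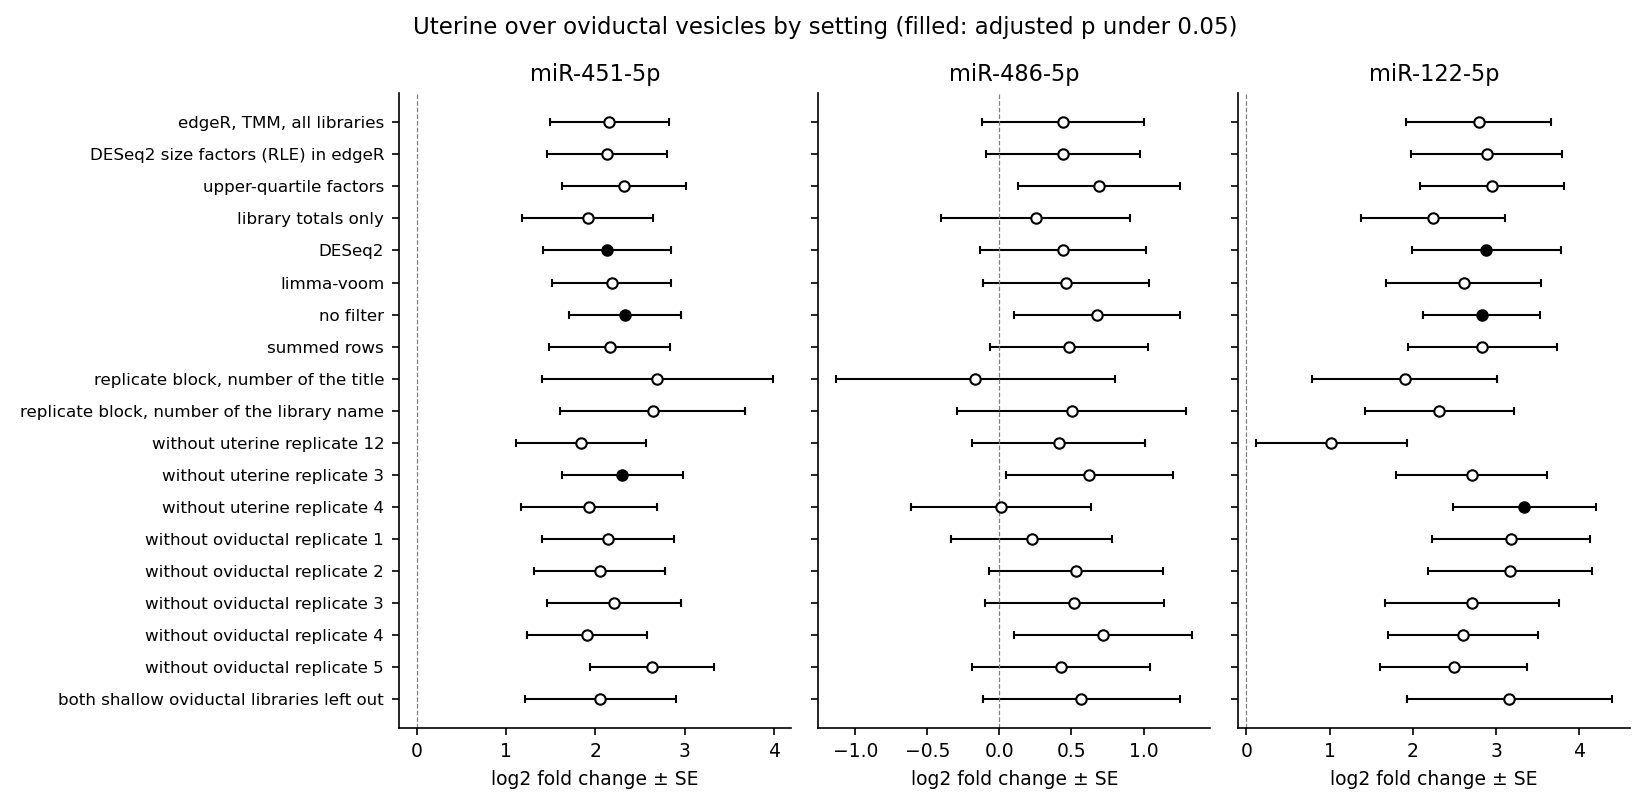
Log2 fold change of uterine over oviductal vesicles with its standard error (horizontal axes, which differ between panels) under each processing setting (rows), with filled points where the adjusted p was under 0.05. The values of miR-451-5p and miR-122-5p stayed above 0 in the main analysis and all 18 alternatives and were filled in 3 each, and those of miR-486-5p lay between -0.17 and 0.72 and were never filled.

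Ratios between miRNAs of the same library need no scaling between libraries, and 3 were compared by an exact two-sided permutation test, which has 56 arrangements of the libraries, on log2 ratios with 0.5 read added. The ratio of miR-451-5p to miR-486-5p was 1.44, 0.910 and 0.903 in uterine replicates 12, 3 and 4. In oviductal replicates 1 to 5 it was 0.876, 0.193, 0.352, 0.0437 and 0.674. All 3 uterine libraries were above all 5 oviductal ones. On the log2 scale the mean was 0.08 ± 0.39 in uterine (SD, n = 3) and -1.82 ± 1.71 in oviductal libraries (SD, n = 5), a difference of 1.90 (exact permutation p = 0.0357, the smallest that the test can give, or 0.107 adjusted over the 3 ratios). The adjusted value did not pass, and 0.107 is the smallest that a single one of the 3 ratios could reach. The margin was narrow. miR-451-5p held 47.5% of the reads of the pair in uterine replicate 4 (exact 95% interval 45.4% to 49.6%) and 46.7% in oviductal replicate 1 (41.8% to 51.7%), which overlap. In oviductal replicate 4 it held 4.19% (2.78% to 6.03%). Without that library the difference was 1.23 on the log2 scale (exact permutation p = 0.0571, the smallest then possible). Of the 177 other miRNAs tested, 2 (1.13%) had a ratio to miR-486-5p that was higher in all uterine than in all oviductal libraries, miR-451-5p and miR-146a-5p, an miRNA of activated leukocytes.

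In human plasma the ratio of miR-451 to miR-23a, a plasma miRNA that red cells hold little of, is used to show burst red cells. miR-23a-3p was not among the names of the table, and miR-23b-3p, which differs little in sequence, took its place. Reads of miR-451-5p per read of miR-23b-3p were 4.43, 0.549 and 3.54 in uterine replicates 12, 3 and 4. In oviductal replicates 1 to 5 they were 0.277, 0.773, 0.969, 0.250 and 1.47. Uterine replicates 12 and 4 were above all oviductal libraries, and uterine replicate 3 was below 3 of them. The difference was 1.77 on the log2 scale (exact permutation p = 0.143, or 0.214 adjusted over the 3 ratios), and 1.22 without uterine replicate 12 and 2.72 without uterine replicate 3.

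miR-122-5p kept a fixed ratio neither to miR-486-5p nor to miR-451-5p. Reads of miR-122-5p per read of miR-486-5p were 2.10, 0.924 and 0.0745 in uterine replicates 12, 3 and 4, and 0.876, 0.318, 0.125, 0.0307 and 0.0358 in oviductal replicates 1 to 5. The difference of 1.98 on the log2 scale did not pass (exact permutation p = 0.25, and 0.25 adjusted). It was 0.98 without uterine replicate 12 and 3.39 without uterine replicate 4. Set against miR-451-5p, with no test, miR-122-5p had 1.46, 1.01 and 0.0825 reads per read in uterine replicates 12, 3 and 4. In oviductal replicates 1 to 5 that ratio was 1.00, 1.65, 0.355, 0.704 and 0.0530. The groups overlapped.

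**Figure D3:**
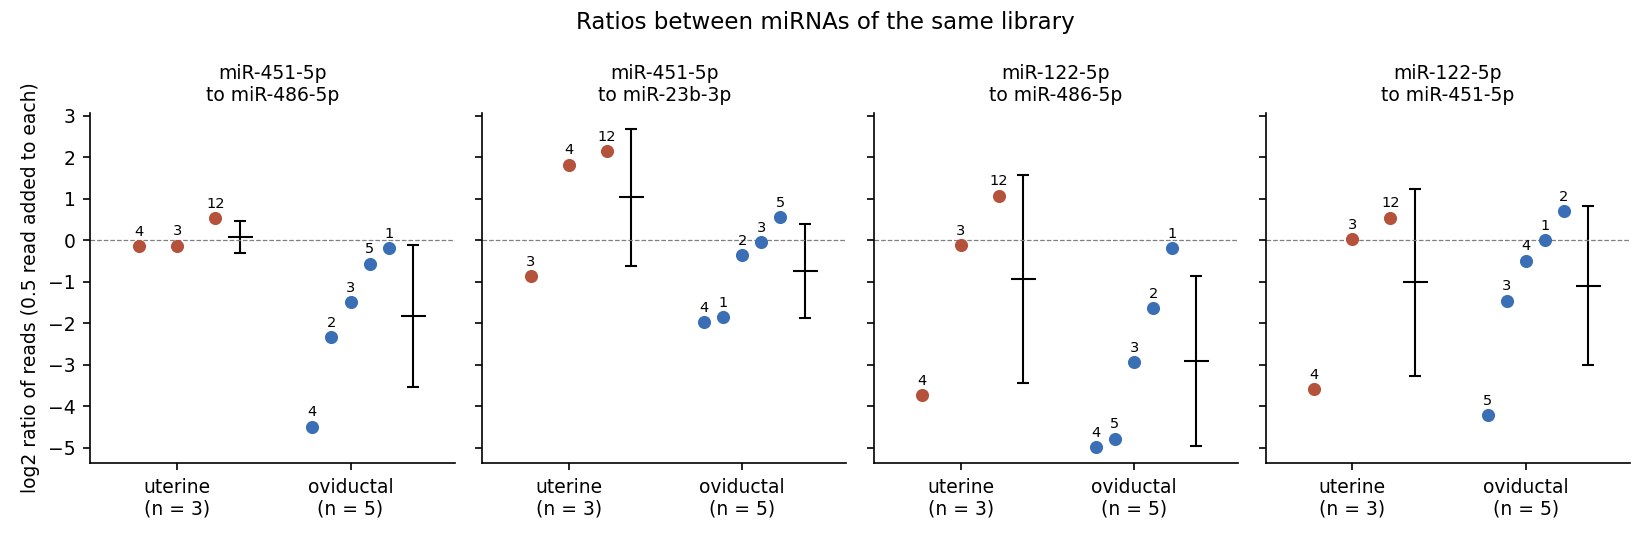
Log2 ratio of reads between miRNAs of the same library (vertical axis, 0.5 read added to each count), 1 point per library with its replicate number, uterine left and oviductal right, black bars mean ± SD and the dashed line at equal reads. In the ratio of miR-451-5p to miR-486-5p the uterine points, -0.15 to 0.53, lie above the oviductal ones, -4.49 to -0.19; the other panels overlap.

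Over the 8 libraries, likeness to each member was measured as Pearson's r of log2 TMM-scaled CPM with 1 added, among 128 other miRNAs of at least 100 CPM on average. These values describe libraries that differ in depth and origin and carry no test. Those most like miR-451-5p were miR-146a-5p (r = 0.93), miR-24-2-5p (0.87) and miR-140-3p (0.82), and miR-486-5p followed it less closely (0.21), as did miR-122-5p (0.46). Both of the first, the leukocyte miR-146a-5p and miR-24-2-5p of a miR-23/miR-27/miR-24 cluster, had positive log2 fold changes, 2.95 and 2.97, that edgeR did not call (adjusted p 0.134 and 0.188), while miR-140-3p was called (4.02, adjusted p 0.0112). Those most like miR-486-5p were miR-423-5p (0.78), let-7b-5p (0.72) and miR-10b-5p (0.66), a HOX-cluster miRNA. Those most like miR-122-5p were miR-574-3p (0.81), miR-151-3p (0.77), from the gene of focal adhesion kinase, and miR-21-5p (0.76), while its r with miR-486-5p was -0.23. Of these, miR-151-3p was called by edgeR (log2 fold change 2.29, adjusted p 0.0112).

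No other miRNA listed for blood was called by edgeR, over all tested miRNAs, and the lists held values of both signs. Of 10 names listed as abundant in red cells besides the members, 9 were in the table, all had reads and 6 were tested, 2 with positive and 4 with negative log2 fold changes, a median of -0.61 and 0 called by edgeR. At an unadjusted p under 0.05 edgeR had 2 of the 6, miR-96-5p and miR-182-5p, both lower in uterine vesicles (-3.35 and -1.44), and DESeq2 called 1, miR-96-5p. Over all 178 miRNAs these rules gave 28 (15.7%) and 11 (6.18%). The most abundant of the list was miR-92a-3p of the miR-17/miR-92 cluster, at 4986 ± 5188 CPM over uterine (SD, n = 3) and 9346 ± 3120 CPM over oviductal libraries (SD, n = 5). miR-25-3p had a log2 fold change of 0.20. Summed, the list held 0.452% to 1.59% of uterine and 0.981% to 2.44% of oviductal reads. miR-16, abundant in human red cells, stood in the table as miR-16a-5p and miR-16b-5p, which were looked up after the values had been seen. They had 65 and 150 reads over all libraries, 108 of the second in oviductal replicate 5.

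Of the platelet and myeloid list, 3 of 5 names were in the table. miR-223-3p, of neutrophils and platelets, had 0, 0 and 77 reads in uterine replicates 12, 3 and 4 and 5, 7, 0, 0 and 0 reads in oviductal replicates 1 to 5. The log2 fold changes of the others, miR-191-5p and miR-199a-3p, were -0.76 and 1.84, neither called (1 at an unadjusted p under 0.05 by edgeR, and 0 by DESeq2). The list summed to 0.163% to 0.638% of uterine and 0.461% to 0.812% of oviductal reads. Of the leukocyte list, all 6 names were in the table, 5 had reads, 4 were tested, 3 of them with positive values, and 0 were called by edgeR (1 at an unadjusted p under 0.05, and 1 by DESeq2, in both cases miR-146a-5p). The median was 0.48, with miR-155-5p at 0.03, miR-181a-5p at -0.74 and miR-150-5p at 0.94. miR-142-5p had no read in any library, and miR-142-3p, known from all blood lineages, had 0, 0 and 28 reads in uterine replicates 12, 3 and 4 and 0 to 25 in the oviductal libraries. The list held 0.433% of reads in uterine replicate 4, the library with the most miR-451-5p, against 0.124% to 0.129% in the other uterine and 0.225% to 0.325% in the oviductal libraries. The part of these cells in the levels of the members was not tested.

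Of the other miRNAs abundant in liver, 5 of 6 names were in the table and 4 were tested, 3 with positive values, a median of 0.68 and 0 called by edgeR (1 at an unadjusted p under 0.05, and 0 by DESeq2). miR-885-5p, which is enriched in human liver, had 1 read in uterine replicate 4 and 2 in oviductal replicate 5, and miR-194-5p averaged 83.9 ± 93.9 CPM over uterine (SD, n = 3) and 45.2 ± 37.4 CPM over oviductal libraries (SD, n = 5). miR-148a-3p and miR-99a-5p, the most abundant of this list at log2 fold changes of 0.99 and -0.83, had more reads than miR-122-5p in every library, and averaged 437219 and 41911 CPM in uterine and 308061 and 84359 CPM in oviductal libraries. miR-101-3p was at 0.37. In uterine replicate 12, where miR-122-5p stood highest, miR-194-5p had 8 reads and miR-885-5p had 0, which allows up to 12.9 CPM. The reads of miR-885-5p are too few to compare libraries.

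miR-486 is also a muscle miRNA, and the muscle list differed between the same libraries. Log2 fold changes were positive for all 4 tested names, at a median of 2.05, and 1, miR-143-3p of smooth muscle, was called (log2 fold change 2.81 ± 0.48 SE, edgeR adjusted p 0.00261). miR-1-3p of striated muscle was at 5.50 (0.0503), miR-145-5p at 1.30 and miR-206-3p, also of striated muscle, at 0.84 (0.802). Over all 178 tested miRNAs 87 had positive values, and edgeR called 3 (1.69%). At an unadjusted p under 0.05 edgeR had 2 of the 4, and DESeq2 called 2, in both cases miR-143-3p and miR-1-3p. miR-133a-3p of striated muscle, which was not tested, had 3, 4 and 10 reads in uterine replicates 12, 3 and 4. It averaged 18.5 ± 13.9 CPM over uterine libraries (SD, n = 3) against 62.5 ± 100.6 CPM over oviductal libraries (SD, n = 5). In oviductal replicates 1 to 5 it had 36, 11, 0, 0 and 0 reads, so the oviductal mean rests on replicates 1 and 2. The list summed to 2.51%, 0.569% and 4.50% of reads in uterine replicates 12, 3 and 4, against 0.372% to 0.462% in the oviductal libraries. miR-133b-3p had no read. The order of the uterine libraries, replicate 4 above 12 above 3, was that of miR-451-5p and of miR-486-5p. This sum was mostly miR-143-3p, and miR-1-3p had another order, with 2322, 754 and 120 CPM in uterine replicates 12, 3 and 4. In the oviductal libraries the muscle sum varied little, while miR-451-5p spanned 10.9-fold and miR-486-5p spanned 4.94-fold.

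The list of tract epithelium ran the other way in its sum. Of 9 names 6 were in the table and 5 were tested, 2 with positive and 3 with negative log2 fold changes, a median of -0.18 and 0 called by edgeR (1 at an unadjusted p under 0.05, and 0 by DESeq2). They were miR-200c-3p at -1.13, miR-34c-5p at -0.39, miR-34b-5p at -0.18, miR-141-3p at 0.30 and miR-449a-5p at 1.26. The most abundant, miR-200c-3p, averaged 13262 ± 9178 CPM over uterine libraries (SD, n = 3) and 39515 ± 6557 CPM over oviductal libraries (SD, n = 5). The sum was 0.857%, 4.72% and 2.38% of reads in uterine replicates 12, 3 and 4 and 5.20% to 7.79% in the oviductal libraries. Uterine replicate 3, with the least of the members' reads in its group, had the most epithelial reads of that group. Between the other uterine libraries the order was the same for both, as replicate 4 had more of each than replicate 12. The part of muscle or of epithelium in the difference between the fluids was not tested.

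**Figure D4:**
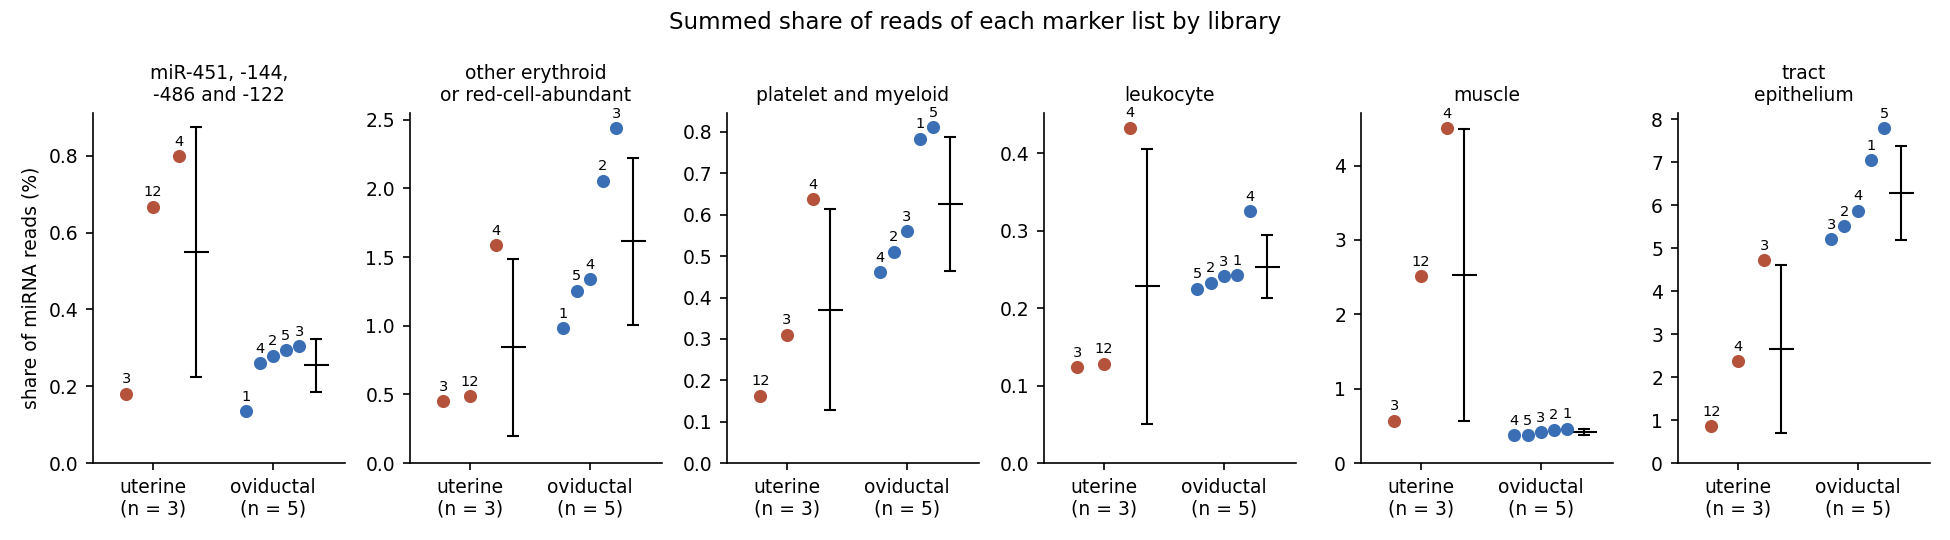
Summed share of miRNA reads (%, linear axes from 0, each with its own scale) of the 7 members and of 5 marker lists, 1 point per library with its replicate number, uterine left and oviductal right, black bars mean ± SD. The members lie at 0.181% to 0.798% of uterine and 0.135% to 0.305% of oviductal reads, the muscle list at 0.569% to 4.50% and 0.372% to 0.462%, and the epithelial list at 0.857% to 4.72% and 5.20% to 7.79%.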

How the data were processed

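Small RNA of vesicle pools was sequenced. The authors deposited raw read counts for each pair of a mature miRNA and its precursor, together with their RPM, which equal the count over its column sum per 1000000 within 0.005 and were not used further. Per the submitters' processing notes the build was OryCun2.0 and FastQC was run. The aligner and counter are not stated there. Of 615 rows, 1 was kept per mature name, that with the most reads, and CPM were computed from these counts without further scaling. Near-identical miRNAs may share reads. Counts were tested with edgeR 4.0.16 (quasi-likelihood, robust, TMM scaling, filterByExpr) under R 4.3.3 for uterine over oviductal libraries. Log2 fold changes are TMM-scaled, and SE come from the fold change and its F statistic. Ratios were tested by exact permutation with SciPy 1.17.1. Intervals are exact binomial (Clopper-Pearson, 95%), and the floor is 3 reads. Alternatives were other scalings, no filter, summed rows, DESeq2 1.42.0, limma-voom (limma 3.58.1), blocks by number and removal of libraries; the ratios without both shallow libraries were added after the data were seen.

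The members, lists and ratios were chosen with earlier results of these data known. The miRNAs named were the members, the list members (by value the 3 most abundant of a list, and those at or near 0 or called) and the 3 most like each of 3 members. The members near 0, miR-133a-3p, miR-145-5p, miR-206-3p, miR-141-3p, miR-449a-5p, miR-96-5p, miR-194-5p, miR-150-5p and the miR-16 names were named after their values were seen. miR-122-3p had no reads, so its test and the ratio of the arms of miR-122 gave no value. The RefSeq table is of another assembly and served for gene names and neighbours only.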

Additional observations from a re-analysis of the deposited data

Results flagged for a closer look

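The sum of the 7 members in oviductal replicate 1, 1352 CPM, stood apart from the other oviductal libraries, whose next lowest value was 2608 CPM. The gap was 0.742 of the range of the group, above the critical value of 0.71 for 5 samples. It was the only one of 7 oviductal quantities examined that stood apart. Chance sets apart about 1 in 20 of such quantities each, so a single one among 7 is not rare. In that library miR-486-5p was at 491 CPM, against 1720 to 2427 CPM in the other oviductal libraries.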

How the results depend on the processing

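The number of called miRNAs, 3 in the main analysis, was 6 with upper-quartile factors, 1 with library totals only, 11 by DESeq2, 1 by limma-voom, 13 with no filter, 7 with summed rows, and 1 to 27 when 1 library was left out. It was 0 without both shallow oviductal libraries, where edgeR gave 20 miRNAs an unadjusted p under 0.05. Upper-quartile factors moved the median log2 fold change over the tested miRNAs to 0.19, and library totals to -0.31, from -0.02.

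The log2 fold change of miR-451-5p was 2.13 by DESeq2 and 2.33 with no filter, both past the threshold, and 1.84 to 2.63 when 1 library was left out. That of miR-122-5p was 2.88 by DESeq2 and 2.83 with no filter, both past the threshold, and 1.02 to 3.34 when 1 library was left out. Both kept a positive sign in all 18 alternatives and stayed on the same side of the threshold in 15. That of miR-486-5p turned to -0.17 with a block by the number in the titles and was otherwise positive. In that block only the numbers 3 and 4 occurred in both groups, so the value rests on the libraries of those numbers. Between uterine and oviductal libraries miR-486-5p was at 627 against 2062 CPM for number 3 and at 4009 against 2427 CPM for number 4. The 3 ratios kept their sign in all 12 alternatives each. None passed, but with any library left out none could, as the smallest possible exact permutation p was then 0.0571 to 0.1. With all libraries a single ratio could not go under 0.107 adjusted, so the lack of a pass says little.

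The groups share the numbers 3 and 4 in their titles, and 1, 3 and 4 in their library names. The deviations of libraries of the same number from their group means had r of -0.15, -0.10 and -0.15 for 3, 4 and 1. These few values cannot tell whether such libraries share does. Shared numbers do not state a shared animal, so the main analysis had no replicate block. With a replicate block by the titles, or by the library names, 0 miRNAs were called, against 8 and 11 at an unadjusted p under 0.05. Only libraries whose number occurs in both groups inform these fits. They have little power for that reason, so the lack of calls says little. In these blocks miR-451-5p was at 2.69 and 2.64 and miR-122-5p at 1.90 and 2.32, none past the threshold. In oviductal replicates 2 and 3 the values of miR-451-5p, miR-486-5p and miR-122-5p rest on 11 to 88 reads, and in oviductal replicate 4 those of miR-451-5p and miR-122-5p on 27 and 19.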
